A study of Capra hircus with 3 samples.

Results

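The genes described here encode the Polycomb repressive complex 2 (PRC2) and the main H3K9 methyltransferases. They are EZH1, EZH2, EED, SUZ12, JARID2, SETDB1, EHMT1, EHMT2 and SUV39H2, chosen by symbol from the 27271 features of goat single-cell libraries. Of the 9 listed genes 8 were measured, each by 1 feature, and no feature carries the symbol SUV39H2. PRC2 places methyl groups on lysine 27 of histone H3 and thereby keeps developmental genes such as the HOX clusters silent. Methylation of lysine 9 of the same histone marks heterochromatin and silences retroelements. Both marks are known from the mouse to be remodelled in fetal germ cells, which erase most of their DNA methylation before the male germ line rebuilds it.

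The libraries came from goat (Capra hircus) gonads labelled as testis of male fetuses at the embryonic stages E85, E105 and E125, days of gestation, with no other treatment or genotype named. Testes were dissociated with enzymes and run on the 10x Genomics platform, which counts the unique molecular identifiers (UMIs) of transcript ends in each cell. There was 1 library per stage, and the number of fetuses behind each is not given in the sources used here. No difference between stages or classes therefore has a test or a replicate check, and all intervals are exact at 95% and cover counting error only. The libraries held 7478, 8520 and 8346 barcodes and 45339231, 40741902 and 49692252 UMIs at E85, E105 and E125, and 6328, 7069 and 7319 barcodes were kept as cells. At most 10 kept barcodes were shared between any pair of libraries.

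Cells were classed by marker genes. Germ cells numbered 83 at E105 and 226 at E85, and Sertoli cells, the somatic cells that enclose them, 1993 and 2541. The library labelled E125 went against its label of testis. It held 2 germ cells and, once 52 cells that passed both the Sertoli and the pregranulosa gate were left out, 0 Sertoli cells of the kinds found in the other libraries, but 98 oocyte-like cells with 9703 CPM of ZP3, a coat gene of the oocyte, and 543 pregranulosa-like cells with 954 CPM of FST. Its values are therefore given for the library labelled E125 and are not read as a later stage of the male germ line. CPM, the UMIs of a gene scaled to 1000000 UMIs of the class, is the level used throughout. In the oocyte-like cells 8 of 9 measured oocyte markers were above 0, with OOSP2 at 0, and all 10 general germ cell markers were detected, at 783 CPM in sum. Germ cells of E105 and E85 carried all 10 germ markers at 2024 and 1849 CPM in sum. The gates drew on markers of these same lists. Marker counts and sums in this paragraph therefore follow in part from the gating and are no independent support for the class names. The Sertoli list, of which 11 of 12 genes had a feature, summed to 1213 and 885 CPM in these germ cells and to 10705 and 4699 CPM in Sertoli cells of E105 and E85. DMRT1, which male germ cells also express, made up 1014 and 706 CPM of the sums in germ cells. NR5A1 was at 0 in germ cells of both libraries and DHH at 0 in those of E105. At E105 and E85 free RNA was low by the germ cell gene MORC1, whose level in Sertoli cells was 0.356% of that in germ cells at E105 and 0.598% at E85. AMH, the Sertoli cell hormone, stood in germ cells at 0.45% and 1.24% of its Sertoli level. No such reading was made for the library labelled E125. There the oocyte list summed to 15899 CPM in oocyte-like cells. In the other classes with at least 50 cells it summed to between 52.2 CPM (pregranulosa-like) and 193.3 CPM (stromal).

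In germ cells 3 of the 8 measured genes were at least 1.5-fold higher at E105 than at E85 and none was 1.5-fold lower. They were EZH2, EED and EHMT1. Among all 10403 features with at least 20 UMIs over both sums, 20.8% were higher by this fold and 5.4% lower, so a count of 3 in 8 is close to what the share of all features gives. The median log2 ratio was 0.35 for the 8 genes and 0.22 for all features. With TMM scaling, which sets the middle of all features near 0 and moved their median by -0.21, the shares of all features became 12% higher and 9.6% lower, and 1 of the 8 genes was past the fold.

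EZH2, the PRC2 catalytic subunit typical of dividing cells, had 72 UMIs and 42.4 CPM in germ cells of E105, against 90 UMIs and 20.1 CPM in those of E85. The ratio was 2.11 (1.52 to 2.90), the highest of the 8. EZH1, the alternative catalytic subunit known from quiescent and differentiated cells, stood at 11.8 CPM (7.20 to 18.2) at E105 and 12.3 CPM (9.27 to 16.02) at E85. EZH2 thus had 3.6 UMIs per EZH1 UMI at E105 (2.17 to 6.24) and 1.64 at E85 (1.16 to 2.33). The intervals overlapped, the difference was not tested, and a UMI ratio is not a comparison of the levels of the subunits. This UMI ratio was 1.67 at E105 and 0.977 at E85 in Sertoli cells, and 4.14 and 4.07 in stromal cells. It was 2.55 and 3.91 in endothelial cells, 2.56 and 4.14 in lymphoid cells and 0.8 and 0.25 in macrophages. The macrophage values rest on 8 EZH2 and 10 EZH1 UMIs at E105 (0.274 to 2.25) and on 1 and 4 UMIs at E85 (0.0051 to 2.53). Both intervals spanned 1. EED, the subunit that reads H3K27 methylation and stimulates the enzyme, had 35.9 CPM at E105 and 21.5 CPM at E85, a ratio of 1.67 (1.19 to 2.33). SUZ12, the scaffold of the complex, had 105.4 CPM at E105 and 77.6 CPM at E85, a ratio of 1.36 (1.13 to 1.63). JARID2, an accessory subunit that helps bring PRC2 to chromatin, had 94.8 CPM at E105 and 82.6 CPM at E85, and its ratio of 1.15 (0.948 to 1.39) spanned 1 and turned to a log2 ratio of -0.01 with TMM scaling.

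Of the H3K9 enzymes, EHMT1 had 30.6 CPM in germ cells of E105 and 19.2 CPM in those of E85, a ratio of 1.59 (1.11 to 2.27). Its partner EHMT2, which forms with EHMT1 the enzyme pair known as GLP and G9a, had 25.3 CPM at E105 and 21.3 CPM at E85, a ratio of 1.19 (0.811 to 1.73). SETDB1, which trimethylates H3K9 at retroelements, went the other way with 31.8 CPM at E105 and 38.7 CPM at E85, and its ratio of 0.822 (0.594 to 1.12) spanned 1. EZH2, EED, SUZ12 and EHMT1 were the genes whose counting interval lay above 1. The median ratio of all features was 1.16, and the intervals of SUZ12 and EHMT1 included it.

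**Figure D1:**
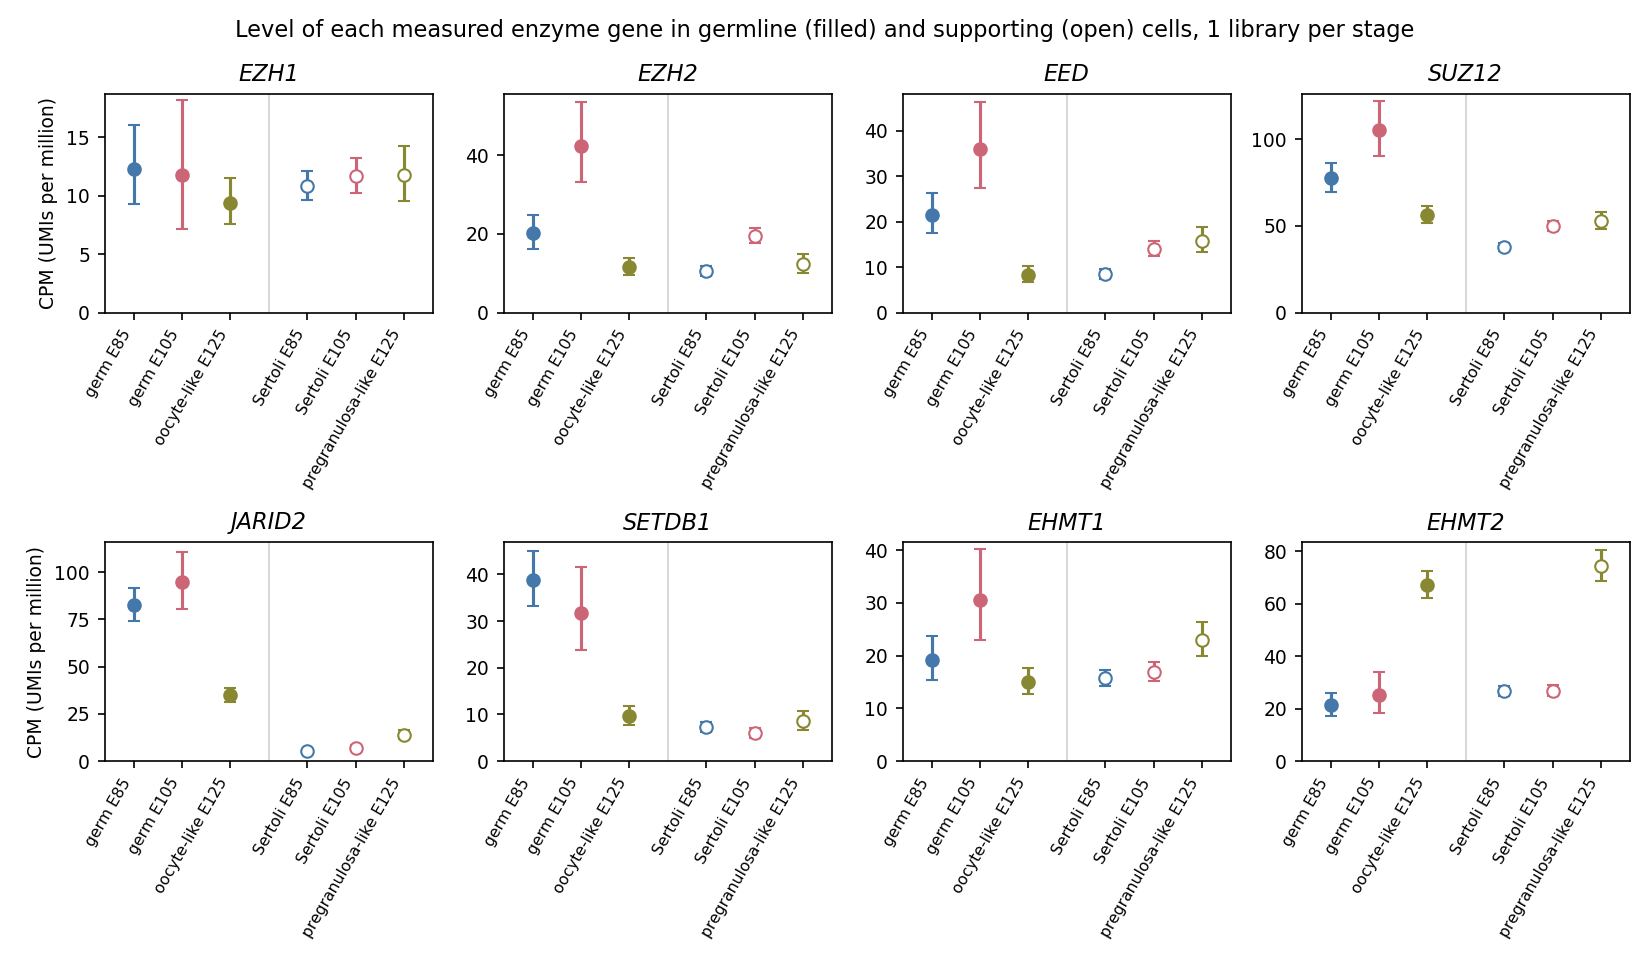
Level of each of the 8 measured genes in CPM in germ cells of E85 and E105 and oocyte-like cells of the library labelled E125 (filled) and in Sertoli cells of E85 and E105 and pregranulosa-like cells of the library labelled E125 (open), with 95% Poisson intervals of counting error. JARID2 stood at 94.8 and 82.6 CPM in germ cells of E105 and E85, far above the Sertoli cells, and EHMT2 was high in both classes of the library labelled E125.

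Among germ cells of E105, EZH2 and EHMT1 were higher in those that carried transcripts of dividing cells. Germ cells with at least 5 UMIs of TOP2A, the topoisomerase of dividing cells, were 19 of 83 cells at E105 and 37 of 226 at E85, a split chosen after seeing the data. They were deeper, with a median of 28965 UMIs against 17048 in the rest at E105 and 29760 against 18109 at E85. At E105 EZH2 had 67.1 CPM in the cells with TOP2A and 30.5 CPM in the rest, a ratio of 2.20 (1.35 to 3.6). EHMT1 had 52.6 CPM in the cells with TOP2A and 20.1 CPM in the rest, a ratio of 2.62 (1.46 to 4.75). JARID2 was level between the same cells, with 96.2 CPM in those with TOP2A and 94.2 CPM in the rest. At E105 3 of the 8 genes were past 1.5-fold higher, EHMT2 being the third, against 17.3% of all features. At E85 the EZH2 ratio was 1.25 (0.760 to 2.0), and EHMT1 alone was past the fold upward, at 1.56 (0.965 to 2.49), against 12.7% of all features. EHMT2 was past it downward at E85, with 10.9 CPM in the cells with TOP2A and 24.6 CPM in the rest, a ratio of 0.445 (0.221 to 0.819), against 28.0% of all features. EHMT2 at E105 had a ratio of 1.65 (0.853 to 3.14), the opposite direction with an interval that spanned 1, and the difference between the libraries was not tested.

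With the TOP2A cells left out of both libraries, EZH2 had 30.5 CPM in germ cells of E105 and 19.0 CPM in those of E85, and its log2 ratio was 0.69 in place of 1.07. EHMT1 then had 20.1 CPM at E105 and 16.9 CPM at E85, with a log2 ratio of 0.25 in place of 0.67. EED kept a log2 ratio of 0.69 in place of 0.74. TOP2A itself had 217.9 CPM in germ cells of E105 and 180.1 CPM in those of E85, and the part of dividing cells in the stage difference was not tested further.

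**Figure D2:**
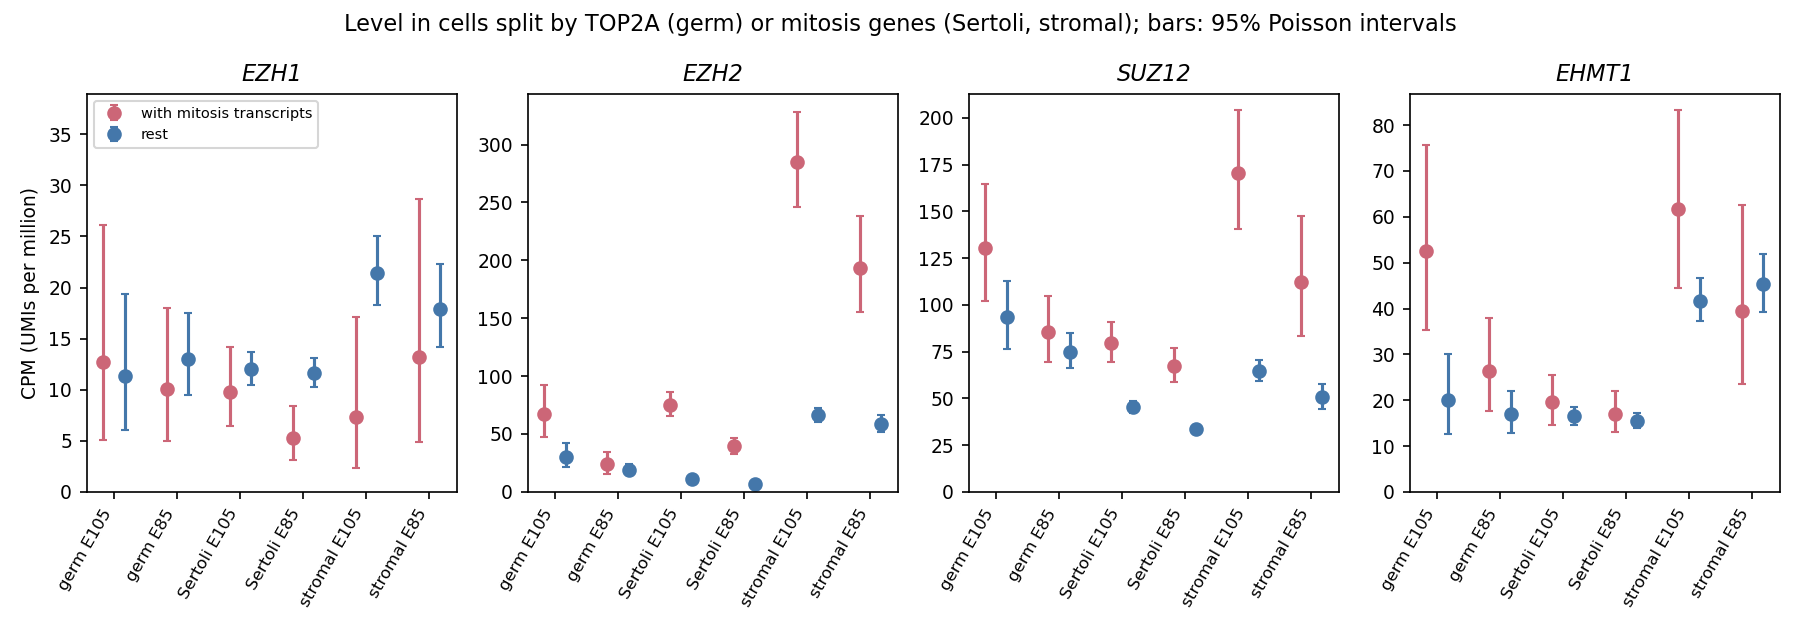
Levels in CPM of EZH1, EZH2, SUZ12 and EHMT1 in cells with mitosis transcripts (red) and in the rest (blue) within 1 class and library, with 95% Poisson intervals. Germ cells were split at 5 UMIs of TOP2A and Sertoli and stromal cells at 3 UMIs of 11 mitosis genes, and EZH2 was higher in the red than in the blue cells of each Sertoli and stromal pair.

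In Sertoli cells, split by several mitosis genes and not by TOP2A alone, EZH2 was higher in the cells with these transcripts in both libraries. Sertoli cells with at least 3 UMIs of mitosis genes were 196 of 1993 cells at E105 and 221 of 2541 at E85. At E105 EZH2 had 75.2 CPM in the Sertoli cells with mitosis genes and 10.99 CPM in the rest, a ratio of 6.84 (5.61 to 8.35). At E85 it had 39.4 CPM in those cells and 6.54 CPM in the rest, a ratio of 6.03 (4.75 to 7.64). SUZ12 was higher too, with 79.6 CPM in the Sertoli cells with mitosis genes and 45.4 CPM in the rest at E105 and with 67.4 and 33.5 CPM at E85. EZH1 was not, with 9.76 CPM in the cells with mitosis genes and 11.99 CPM in the rest at E105 and with 5.30 and 11.6 CPM at E85, where its ratio was 0.455 (0.266 to 0.733). In all, 2 of the 8 genes were past 1.5-fold higher at E105, against 16.7% of all features. At E85 3 were higher, EED with a ratio of 1.51 being the third, against 16.8% of all features, and EZH1 was lower, against 10.6%. JARID2, SETDB1, EHMT1 and EHMT2 stayed under 1.5-fold in both libraries.

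In stromal cells both genes were again higher in the cells with mitosis genes. EZH2 had 284.9 CPM in the stromal cells of E105 with mitosis genes and 66.2 CPM in the rest, and at E85 it had 193.3 and 58.7 CPM. SUZ12 had 170.4 CPM in the stromal cells of E105 with mitosis genes and 64.8 CPM in the rest, and at E85 112.0 and 50.6 CPM. Of the 8 genes 2 were higher by the fold in each library, against 17.5% of all features at E105 and 19.0% at E85. EZH1, with 7.34 and 21.5 CPM, and JARID2, with 7.34 and 11.6 CPM, were lower by the fold at E105, against 25.4% of all features. Among the cells under 3 UMIs of mitosis genes EZH2 had 66.2 CPM in stromal and 10.99 CPM in Sertoli cells at E105, and 58.7 and 6.54 CPM at E85. The stromal cells of this kind were shallower, with a median of 2197 UMIs against 9958 UMIs in the Sertoli cells of E105, and the part of depth in this difference was not tested.

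Germ cells were set apart from Sertoli cells of the same library above all by JARID2 and SETDB1. At E105 6 of the 8 genes were at least 1.5-fold higher in germ cells than in Sertoli cells, and at E85 5 of the 8, with none 1.5-fold lower. Of all features 59.7% were higher and 19.7% lower at E105, and 59.0% higher and 19.3% lower at E85, so these counts are near those of all features. The median log2 ratio was 1.11 for the 8 genes and 1.05 for all features at E105, and 0.99 and 0.98 at E85. With TMM scaling, which moved the median of all features by -1.12 at E105 and -1.04 at E85, the shares of all features were 33.7% higher and 39.2% lower at E105 and 35.2% and 38.0% at E85, and JARID2 and SETDB1 were the 2 genes still higher by the fold.

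JARID2 had 161 UMIs in 83 germ cells of E105 and 149 UMIs in 1993 Sertoli cells, or 94.8 and 7.14 CPM. The ratio was 13.3 (10.6 to 16.7) at E105 and 15.3 (12.6 to 18.6) at E85, where germ cells had 82.6 CPM and Sertoli cells 5.41 CPM. SETDB1 had 31.8 CPM in germ cells and 5.99 CPM in Sertoli cells of E105, a ratio of 5.31 (3.79 to 7.36), and 38.7 and 7.22 CPM at E85, a ratio of 5.36 (4.35 to 6.60). These ratios lay above the median of all features in both libraries. With TMM scaling the log2 ratios were 2.61 for JARID2 and 1.29 for SETDB1 at E105 and 2.89 and 1.38 at E85.

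SUZ12, EED and EZH2 stood at about the median of all features, and EZH1 below it. SUZ12 had a ratio of 2.11 (1.79 to 2.48) at E105 and 2.06 (1.82 to 2.33) at E85, EED 2.56 (1.91 to 3.38) and 2.53 (1.97 to 3.22), and EZH2 2.17 (1.67 to 2.8) and 1.90 (1.48 to 2.41). With TMM scaling the log2 ratios were between -0.12 and 0.00 for EZH2 and SUZ12, and 0.23 at E105 and 0.30 at E85 for EED, while EHMT1 had log2 ratios of -0.26 and -0.75. Without that scaling EHMT1 had ratios of 1.82 (1.33 to 2.44) at E105 and 1.22 (0.958 to 1.54) at E85. EZH1 had ratios of 1.01 (0.605 to 1.59) at E105 and 1.13 (0.835 to 1.52) at E85. Both intervals lay below the median ratios of all features, 2.08 at E105 and 1.98 at E85. EHMT2 had 25.3 CPM in germ cells and 26.9 CPM in Sertoli cells at E105, a ratio of 0.942 (0.674 to 1.29), and 21.3 and 26.8 CPM at E85, a ratio of 0.793 (0.633 to 0.982). It was the gene lowest in germ cells relative to the median of all features.

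**Figure D3:**
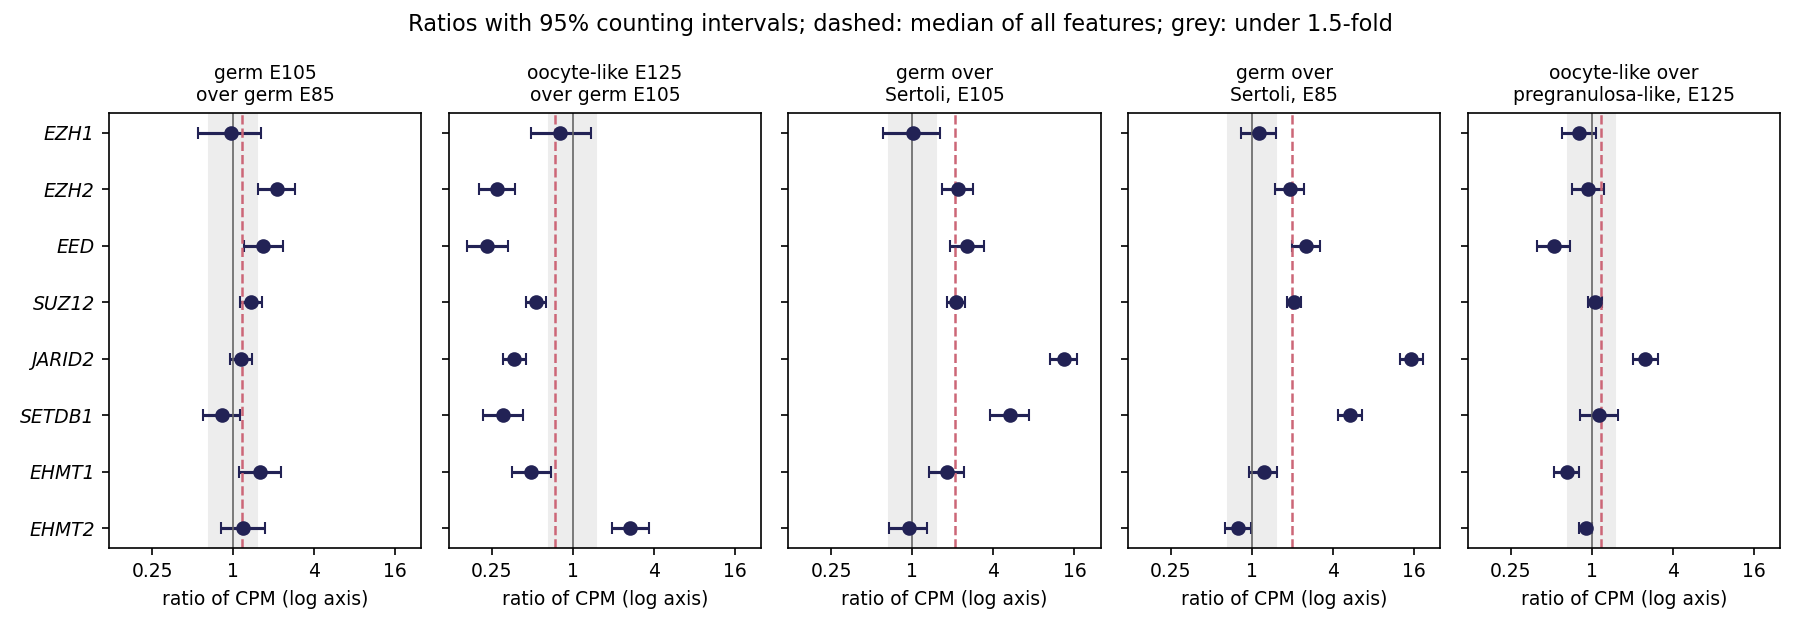
Ratio of CPM, on a log axis, of each of the 8 genes in the 5 comparisons named above each panel, with the 95% interval of counting error, the median ratio of all features (dashed) and the band under 1.5-fold (grey). JARID2 and SETDB1 lie right of the dashed line in germ over Sertoli cells in both libraries, and 6 of the 8 genes lie left of the band in oocyte-like cells over germ cells of E105.

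Shares of cells showed the same order at matched depth. With every cell thinned to 4000 UMIs, 26.5% of germ cells of E105 (17.4 to 37.3) and 25% of those of E85 (19.5 to 31.2) had at least 1 UMI of JARID2, against 3.12% and 2.03% of Sertoli cells. Without thinning the shares were 68.7% and 74.8% of germ cells and 6.97% and 5.59% of Sertoli cells. SETDB1 was found in 10.8% of thinned germ cells of E105 and 12.5% of those of E85, against 1.97% and 2.68% of Sertoli cells. For EHMT2 the shares were 8.43% and 10.7% of germ cells against 10.4% and 9.78% of Sertoli cells, and their intervals overlapped. Median depth without thinning was 19274 and 18888 UMIs in germ cells and 10215 and 10407 UMIs in Sertoli cells of E105 and E85. Within germ cells the variance of thinned counts was 0.890 to 1.12 times the mean over the 8 genes in both libraries. The means lay between 0.0536 and 0.434 UMIs per cell. At such low means this ratio can show little of a spread between cells, and nothing on that spread is concluded from it.

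Against stromal cells, EZH2, EHMT2 and 1 further gene in each library were lower in germ cells. JARID2 was again higher in germ cells, with ratios of 8.40 (6.47 to 10.9) at E105 and 9.90 (7.16 to 14.0) at E85, and SETDB1 with 1.73 (1.25 to 2.38) and 2.29 (1.76 to 3.02). EZH2 was lower, with 42.4 CPM in germ cells and 84.1 CPM in stromal cells at E105, a ratio of 0.504 (0.390 to 0.643), and 20.1 and 71.2 CPM at E85, a ratio of 0.283 (0.222 to 0.358). EHMT2 was lower too, at 0.402 (0.288 to 0.550) and 0.286 (0.226 to 0.360). The third gene was EZH1 at E105, with a ratio of 0.580, and EHMT1 at E85, with 0.430. In each library 2 of the 8 genes were past 1.5-fold higher, against 44.5% of all features at E105 and 45.5% at E85, and 3 were past it lower, against 30.1% and 28.6%.

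In oocyte-like cells of the library labelled E125, 6 of the 8 genes took a smaller share of UMIs than in germ cells of E105, by 1.5-fold or more, and EHMT2 a larger one. Class, stage and library change together here and cannot be told apart. Of all features 46.0% were lower and 30.2% higher by this fold, and the median log2 ratio was -1.24 for the 8 genes and -0.44 for all features. With TMM scaling, which moved the median of all features by 0.50 and changed their shares to 34.6% lower and 39.6% higher, the median of the 8 genes was -0.73. SUZ12, at a log2 ratio of -0.40, and EHMT1 were then no longer lower by the fold.

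EZH2, EED, SUZ12 and JARID2 were lower by the fold, and the interval of EZH1 spanned 1. EZH2 had 11.6 CPM in oocyte-like cells and 42.4 CPM in germ cells of E105, a ratio of 0.274 (0.202 to 0.373). EED had 8.31 and 35.9 CPM in the same cells, a ratio of 0.231 (0.164 to 0.327), the lowest of the 8. SUZ12 had 56.4 and 105.4 CPM, JARID2 35.0 and 94.8 CPM, and EZH1, at 9.41 and 11.8 CPM, had a ratio of 0.799 (0.489 to 1.37). SETDB1 had 9.61 CPM in oocyte-like cells and 31.8 CPM in germ cells of E105, a ratio of 0.302 (0.214 to 0.430).

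The EHMT pair differed in direction. EHMT2 had 67.3 CPM in oocyte-like cells and 25.3 CPM in germ cells of E105, a ratio of 2.66 (1.95 to 3.71), and EHMT1 had 15.0 and 30.6 CPM, a ratio of 0.490 (0.356 to 0.686). There were 4.48 EHMT2 UMIs per EHMT1 UMI in oocyte-like cells (3.75 to 5.38) and 0.827 in germ cells of E105 (0.539 to 1.26). In other classes of the library labelled E125 EHMT2 had 74.4 CPM in pregranulosa-like and 78.5 CPM in stromal cells, and in stromal cells of E85 and E105 it had 74.2 and 62.9 CPM. Endothelial cells had 71.3 CPM in the library labelled E125 and 49.0 and 54.3 CPM at E85 and E105. The same 3 values were 82.3, 46.0 and 52.7 CPM in lymphoid cells and 56.6, 39.0 and 42.1 CPM in macrophages. The pregranulosa-like cells had 3.23 EHMT2 UMIs per EHMT1 UMI (2.75 to 3.81) and stromal cells 1.93 (1.73 to 2.15). When each cell was given the same weight, EHMT1 was higher in oocyte-like cells by a log2 ratio of 0.16. Of the 98 cells 20 had fewer than 4000 UMIs, while the median was 110126. Thinning every cell to 4000 UMIs left these 20 out. EHMT1 was then found in 5.13% of oocyte-like cells (1.41 to 12.6) and 10.8% of germ cells of E105 (5.08 to 19.6), with intervals that overlapped. The part of the 20 shallow cells in the reversal was not tested.

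Per cell, without scaling to depth, the direction was another for most genes. An oocyte-like cell held 1.18 UMIs of EZH2 and 0.847 of EED on average, a germ cell of E105 0.867 and 0.735. EHMT2 had 6.86 UMIs per oocyte-like cell and 0.518 per germ cell of E105, SUZ12 5.74 and 2.16, JARID2 3.56 and 1.94 and EHMT1 1.53 and 0.627. None of the 8 genes had fewer UMIs per oocyte-like cell than per germ cell of E105, while the median depth was 110126 UMIs in oocyte-like cells and 19274 UMIs in germ cells.

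**Figure D4:**
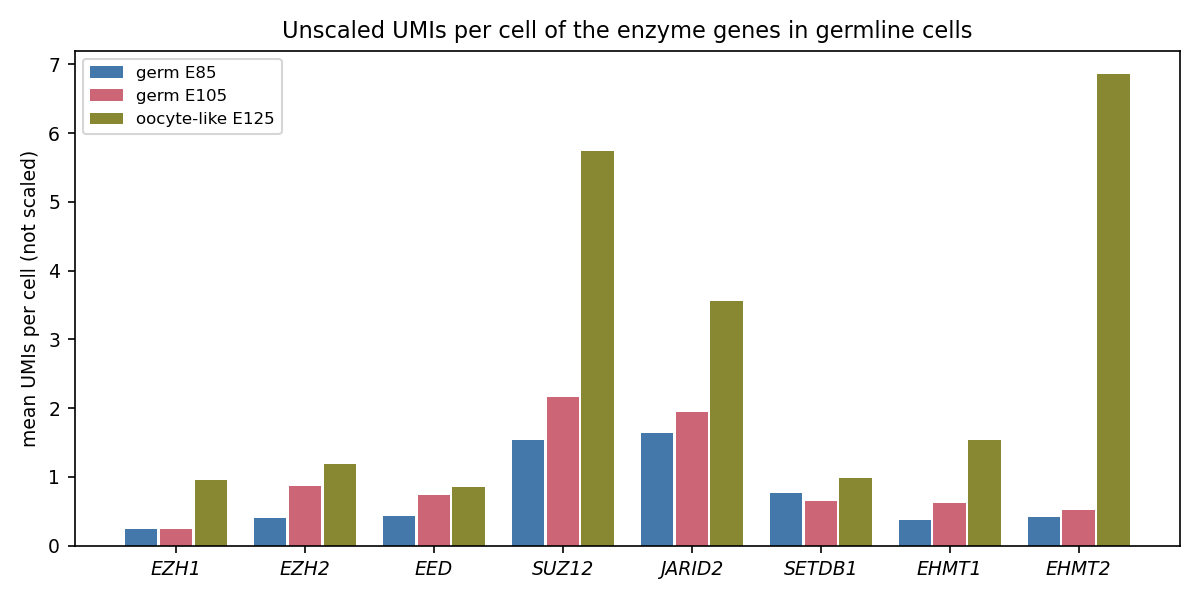
Mean UMIs per cell, without scaling to depth, of the 8 genes in germ cells of E85, germ cells of E105 and oocyte-like cells of the library labelled E125. The oocyte-like bars are the highest for each gene, with 6.86 UMIs of EHMT2 per cell against 0.518 in germ cells of E105.

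Within the library labelled E125, oocyte-like cells differed from pregranulosa-like cells most in JARID2. It had 35.0 CPM in oocyte-like and 14.0 CPM in pregranulosa-like cells, a ratio of 2.50 (2.03 to 3.11), and was the 1 gene of 8 past 1.5-fold higher, against 43.7% of all features. EED, with 8.31 and 15.8 CPM, and EHMT1, with 15.0 and 23.0 CPM, were past it lower, against 34.0% of all features. Their ratios were 0.526 (0.395 to 0.696) and 0.653 (0.524 to 0.811), and with each cell weighted equally they were 0.41 and 0.24 on the log2 scale, in the other direction. With cells thinned to 4000 UMIs, EED was found in 0% of oocyte-like cells (0 to 4.62) and 5% of pregranulosa-like cells (3.23 to 7.35). EHMT1 was found in 5.13% (1.41 to 12.6) and 7.5% (5.31 to 10.2) of them. EZH2, SUZ12, SETDB1 and EHMT2 lay between 0.904 and 1.13, and EZH1 at 0.802 (0.599 to 1.07). The median log2 ratio was -0.12 for the 8 genes and 0.24 for all features.

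Over the 19 classes with at least 50 cells in a library, germ cells of E105 and E85 had the highest levels of JARID2, with 94.8 (80.8 to 110.7) and 82.6 CPM (74.4 to 91.4), and the next level, 43.9 CPM in macrophages of E85, had an interval of 20.1 to 83.3 CPM from 9 UMIs. Oocyte-like cells came behind germ cells and the macrophages of E85 and of the library labelled E125, with 35.0 CPM (31.4 to 38.8), and Sertoli cells came last. SETDB1 had the same first places, with 38.7 CPM in germ cells of E85 and 31.8 CPM in those of E105, and intervals that overlapped with each other and with the 24.4 CPM of macrophages of E85. EHMT2 ran the other way: germ cells of E105 and E85 came last at 25.3 and 21.3 CPM, just below Sertoli cells at 26.9 and 26.8 CPM, and these 4 intervals overlapped from neighbour to neighbour.

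EZH2 was highest in stromal cells of E105 and E85, at 84.1 and 71.2 CPM, and their intervals did not reach that of germ cells of E105, the third level. Stromal cells of the library labelled E125 had 25.2 CPM, a ratio of 0.299 (0.261 to 0.342) to those of E105. EED had 0.637 (0.523 to 0.776) in the same comparison, in which these 2 of the 8 genes were past the fold lower, against 29.6% of all features, and none was past it higher, against 23.9%. Of 20 S phase and mitosis genes 12 were also lower by the fold in these stromal cells and none higher, with a median log2 ratio of -0.88 beside -0.14 for all features, while TOP2A had 175.6 CPM in the library labelled E125 and 200.9 CPM at E105. The part of dividing cells in the EZH2 difference was not tested. SUZ12 ranged from 37.7 CPM in Sertoli cells of E85 to 133.8 CPM in lymphoid cells of the library labelled E125, and EED from 4.32 CPM in endothelial cells of E85 to 39.8 CPM in lymphoid cells of E85. EZH1 ranged from 7.92 CPM in endothelial cells of E85 to 30.1 CPM in macrophages of E105, and the intervals of all neighbours in its order overlapped. EHMT1 was highest in endothelial cells of the library labelled E125, at 47.6 CPM, and in stromal cells, at 44.7, 43.4 and 40.7 CPM at E85, E105 and E125.

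**Figure D5:**
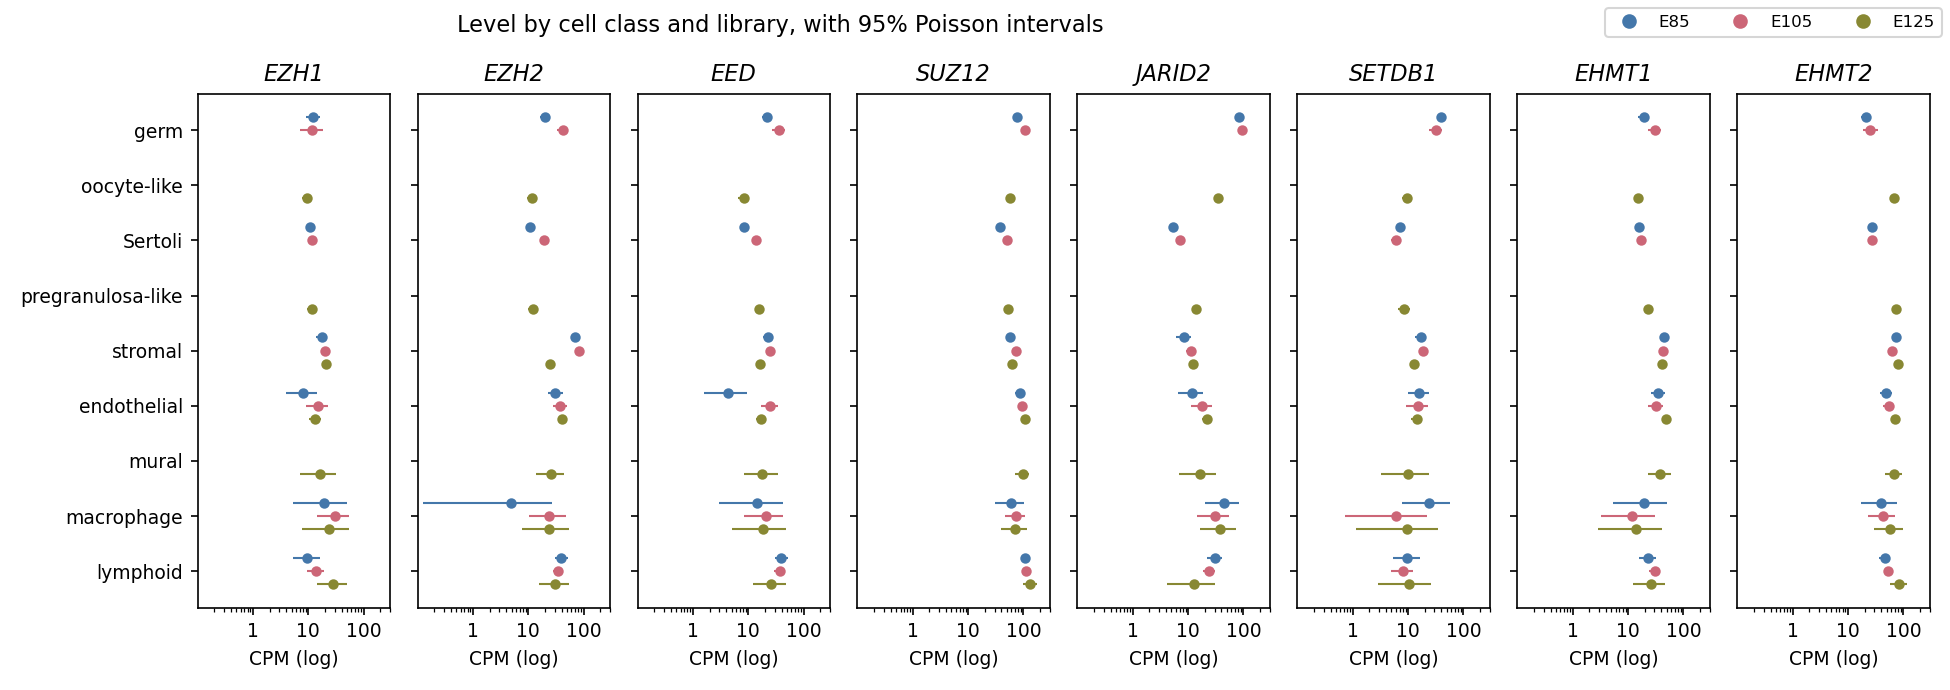
Level in CPM, on a log axis, of the 8 genes in every class with at least 50 cells, coloured by library, with 95% Poisson intervals. Germ cells hold the right-most points for JARID2 and SETDB1 and the left-most for EHMT2, and stromal cells of E85 and E105 the right-most for EZH2.

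EZH2 and EED were also higher by the fold at E105 in Sertoli cells, and EED in endothelial cells. In Sertoli cells EZH2 had 19.5 CPM at E105 and 10.6 CPM at E85, a ratio of 1.84 (1.58 to 2.15), and EED 14.0 and 8.49 CPM, a ratio of 1.65 (1.39 to 1.97). These were the 2 of 8 genes past 1.5-fold higher, against 13.4% of all features, and none was past it lower, against 5.57%. TOP2A had 130.4 CPM in Sertoli cells of E105 and 98.9 CPM in those of E85. In stromal cells no gene of the 8 was past the fold, against 14.0% of all features higher and 5.56% lower, with EZH2 at 1.18 (1.04 to 1.35) and EED at 1.13 (0.891 to 1.43). In endothelial cells EED had 33 UMIs at E105 and 6 at E85, a ratio of 5.68 (2.35 to 16.6), while EZH2 had 38.0 and 31.0 CPM, a ratio of 1.23 (0.801 to 1.88) that spanned 1. In these cells 3 of the 8 genes were past the fold higher, against 15.0% of all features higher and 5.53% lower. In lymphoid cells the ratio was 0.878 (0.623 to 1.25) for EZH2 and 0.929 (0.661 to 1.31) for EED, and none of the 8 was past the fold, against 10.4% higher and 13.9% lower. All these ratios come from the same pair of libraries.

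Further genes of both pathways were taken from lists, and their counts are set against the shares of all features past 1.5-fold. Of 13 genes of PRC2, members included, 11 could be compared in germ cells, and 3 were at least 1.5-fold higher at E105, against 20.8% of all features, with a list median log2 ratio of 0.31 beside 0.22 for all features. The third beside EZH2 and EED was PHF19, which guides PRC2 to CpG islands, with 17.1 CPM at E105 and 8.73 CPM at E85. In germ over Sertoli cells 9 of the 11 were higher at E105 and 8 at E85, against 59.7% and 59.0% of all features, with list medians of 1.17 and 1.05 beside 1.05 and 0.98 for all features, among them PHF1, the testis-rich relative of PHF19, with 135.5 CPM in germ cells and 17.5 CPM in Sertoli cells at E105. In oocyte-like cells 10 of the 11 were lower than in germ cells of E105, against 46.0% of all features, with a list median of -1.72 beside -0.44 for all features. RBBP4, the histone chaperone of the complex, had 6.11 and 35.3 CPM, and AEBP2, an accessory subunit, 13.7 and 52.4 CPM.

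PRC1, the complex that ubiquitinates histone H2A and reads the PRC2 mark, had 1 of 17 genes higher in germ cells at E105, KDM2B, with 38.9 CPM at E105 and 23.0 CPM at E85, against 20.8% of all features. In germ over Sertoli cells 15 of 19 were higher at E105 and 13 of 20 at E85, against 59.7% and 59.0% of all features, with KDM2B, E2F6, CBX2 and CBX7 among them. CBX2, a reader known in mouse and human for its part in male sex determination, had 38.9 CPM in germ cells and 2.30 CPM in Sertoli cells of E105. In oocyte-like cells 8 of 20 were higher and 8 lower than in germ cells of E105, near the 30.2% and 46.0% of all features. CBX6 had 52.0 and 4.12 CPM and PCGF5 107.0 and 17.7 CPM, while E2F6 had 11.2 and 75.4 CPM.

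Among the H3K9 methyltransferases, of which 7 of 8 had a feature, 1 was higher in germ cells at E105, the member EHMT1, against 20.8% of all features. SUV39H1, the partner in kind of SUV39H2 that trimethylates H3K9 in pericentromeric heterochromatin, had 22.4 CPM in germ cells of E105 and 23.7 CPM in those of E85. It had 75.3 CPM in oocyte-like cells, 3.36-fold (2.43 to 4.79) the level in germ cells of E105 and 11.2-fold (8.54 to 14.8) that of the 6.74 CPM in pregranulosa-like cells. In oocyte-like cells against germ cells of E105, EHMT2 and SUV39H1 were the 2 of 7 that were higher, against 30.2% of all features, and 5 were lower, against 46.0%, SETDB2 with 19.5 and 67.7 CPM among them. MECOM had 30.0 CPM in germ cells and 0.479 CPM in Sertoli cells at E105.

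Of 11 partners and readers of H3K9 methylation, 2 were higher in germ cells at E105, against 20.8% of all features. TRIM28, which brings SETDB1 to retroelements, had 111.3 CPM at E105 and 70.7 CPM at E85, a ratio of 1.57 (1.31 to 1.89), while SETDB1 itself was not higher. CDYL, a reader that also binds EZH2 in mammals, had 101.3 CPM in germ cells and 4.12 CPM in Sertoli cells of E105, a ratio of 24.6 (18.9 to 32.2). It had 234.1 CPM in oocyte-like and 16.3 CPM in pregranulosa-like cells. ATF7IP2 was the gene of the list that was lower in germ cells, with 10.6 CPM in germ cells and 49.4 CPM in Sertoli cells of E105. In oocyte-like cells 6 of the 11 were lower and 2 higher than in germ cells of E105, against 46.0% and 30.2% of all features, and CBX5, the heterochromatin protein HP1 alpha, had 27.5 and 126.1 CPM.

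Of 11 demethylases of H3K27 and H3K9, 8 were lower in oocyte-like cells than in germ cells of E105 and 1 higher, against 46.0% and 30.2% of all features, with a list median of -1.96 beside -0.44. KDM3A, which removes H3K9 methylation, had 9.31 CPM in oocyte-like cells and 52.4 CPM in germ cells of E105. In germ cells 4 of 11 were higher at E105, against 20.8% of all features, KDM7A with 33.6 CPM at E105 and 11.9 CPM at E85 by the widest margin, and 9 of 11 were higher in germ than in Sertoli cells in each library, against 59.7% at E105 and 59.0% at E85. For S phase and mitosis genes, 5 of 20 were higher in germ cells at E105, against 20.8% of all features. In oocyte-like cells 14 of 20 were lower than in those germ cells, against 46.0%, and 4 higher, against 30.2%, among them AURKA, the spindle kinase, at 932.5 and 108.4 CPM.

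HOX genes, the best known PRC2 targets, could be compared for 14 of the 28 listed in germ cells of both stages, and 5 were higher at E105, against 20.8% of all features. HOXB2 had 21.8 CPM at E105 and 6.04 CPM at E85 and HOXA7 16.5 and 4.70 CPM. Against Sertoli cells, the 10 with at least 20 UMIs at E105 and the 14 at E85 were higher in germ cells by the fold, against 59.7% and 59.0% of all features. Most had reached 20 UMIs through their germ cell UMIs, so that these counts are a description. HOXC9 had 150.8 CPM in germ cells and 0.958 CPM in Sertoli cells of E105. Against stromal cells of E105, 7 of 16 were higher in germ cells and 7 lower, against 44.5% and 30.1% of all features. At E85 7 of 17 were higher and 7 lower, against 45.5% and 28.6%. In oocyte-like cells 10 of 16 were lower and 3 higher than in germ cells of E105, against 46.0% and 30.2% of all features, and HOXC10 had 1.202 and 100.1 CPM. Levels of RNA do not show which of these genes carried the PRC2 mark.

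The genes with profiles most like 4 of the members were sought among 9197 genes over the 19 points of class and library, which share libraries and cells. JARID2 was most like ZDHHC23, with Pearson's r = 0.95, followed by ENTPD4, CHEK2, AP5Z1 and TBX4. EHMT2 was most like RNF20, with r = 0.93, and R3HDM4. EZH2 was most like CYP51A1, with r = 0.86, and TMPO and NFYB were also among the genes most like it. EZH1 was most like CTSH, with r = 0.84. These values are descriptions with no test.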

How the data were processed

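Single-cell RNA was counted as UMIs per gene and barcode, and the authors deposited 1 filtered count matrix of raw, whole-number counts per library. The submitters' processing notes name Cell Ranger 3.1, while the matrices carry version 6.0.0, per the file headers. No build or annotation is given in the sources used here, and no coordinates or sequences are printed.

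Barcodes were kept from 1000 UMIs and 500 genes upward if 13 mitochondrial genes took no more than 20% of their UMIs. Cells were classed by per-cell marker gates: germ cells needed 3 of 5 germ markers and 500 CPM in sum, and 12 gates were used. At E105 and E85, 1 and 3 germ cells lay above that sum by less than 1.5-fold, and 4 and 12 other cells lay below it by less than 1.5-fold. Cells that passed more than 1 gate were left out, 3 and 8 of them for germ and Sertoli cells at E105 and E85, and 52 for Sertoli and pregranulosa-like cells in the library labelled E125. The oocyte gate took precedence over the germ and mesothelial gates alone. Of the germ cells, 83 of 83 at E105 and 224 of 226 at E85 fell in clusters led by germ markers, and 98 of 98 oocyte-like cells in clusters led by oocyte markers, among 29 Leiden clusters (scanpy 1.11.5, 3000 genes, the 8 genes left out). Barcodes in the top 6% of a doublet score were left out as an alternative.

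UMIs were summed per class and library. CPM has exact Poisson intervals and ratios exact binomial ones (scipy 1.17.1). A gene was compared where both sums together held at least 20 UMIs, and 1.5-fold marks a difference in size, not a test. Alternatives were TMM (edgeR 4.0.16) and median-of-ratios size factors (DESeq2 1.42.0), both used for scaling only, thinning to 4000 UMIs, a mean over cells, a fold of 2, no filter on low counts, and other gates. Of each list, up to 4 genes beside the members could be named per comparison, those whose interval bound nearest 1 lay farthest from 1 among genes with at least 10 CPM in either class. The members and lists were chosen with earlier results of these data known, and gates and thresholds after marker distributions were seen. The planned likeness search for SUV39H2 could not be made, and EZH1 and EHMT2 were searched with EZH2 and JARID2.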

Additional observations from a re-analysis of the deposited data

Results flagged for a closer look

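EED and EHMT1 stood on opposite sides of the supporting cells in the libraries, which flagged both. EED was lower in oocyte-like than in pregranulosa-like cells of the library labelled E125, with a ratio of 0.526 (0.395 to 0.696), and higher in germ than in Sertoli cells, with ratios of 2.56 (1.91 to 3.38) at E105 and 2.53 (1.97 to 3.22) at E85. EHMT1 had a ratio of 0.653 (0.524 to 0.811) in oocyte-like over pregranulosa-like cells and 1.82 (1.33 to 2.44) in germ over Sertoli cells of E105, while that of E85 was 1.22 (0.958 to 1.54) and spanned 1. The difference between these ratios was not tested, since each comes from 1 library. With a mean over cells the log2 ratios in the library labelled E125 were 0.41 for EED and 0.24 for EHMT1, and with TMM scaling that of EHMT1 in germ over Sertoli cells of E105 was -0.26. Thinned to 4000 UMIs, 0% of oocyte-like and 5% of pregranulosa-like cells had EED, and 5.13% and 7.5% had EHMT1.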

How the results depend on the processing

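Of 496 single-gene values under the alternatives, 429 stayed within counting error of the value reported, 58 lay outside it, and 9 were past the fold as reported and changed direction. The 429 include the values at a fold of 2 and with no filter on low counts. These settings leave single-gene values unchanged by construction. Counting genes under the fold too, 44 of the 496 had the opposite sign. In germ cells, E105 over E85, 1 gene was higher by the fold with TMM scaling, with median-of-ratios size factors and at a fold of 2, in place of 3, and 1 was lower after thinning, in place of 0. In oocyte-like cells over germ cells of E105, the median log2 ratio of the 8 genes was -0.73 with TMM, -0.76 with median-of-ratios and -0.79 with a mean over cells, where EHMT1 turned to 0.16, and 2 genes were higher after thinning. In germ over Sertoli cells of E105, 2 genes were higher and 2 lower with either scaling, the medians were -0.021 (TMM) and 0.040 (median-of-ratios), and 1 was lower after thinning. Of all features 33.7% were higher and 39.2% lower with TMM, and 35.2% and 37.8% with median-of-ratios. The log2 ratios of EZH2 (-7.0e-05), SUZ12 (-0.042) and EHMT1 (-0.26) turned with TMM, as did EHMT1 (-0.20) with median-of-ratios. At E85, 2 were higher and 3 lower with either scaling, the medians were -0.057 and 0.012, and EZH2 turned to -0.12 and -0.046. The shares of all features at E85 were 35.2% higher and 38.0% lower with TMM, and 36.8% and 36.5% with median-of-ratios. Under the fold as reported, EHMT1 was there -0.75 with TMM in place of 0.29, and EZH1 -0.86 in place of 0.18. In oocyte-like over pregranulosa-like cells, 0 genes were lower at a fold of 2 and with a mean over cells, where EED (0.41) and EHMT1 (0.24) turned, and the median was 0.18 after thinning. At a fold of 2, 26.2% of all features were lower in this comparison. In Sertoli cells of E85 with mitosis genes, 0 genes were lower after thinning. Shares of all features were not computed after thinning or with a mean over cells. The cause of these shifts was not tested beyond the construction of each alternative.

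No paired analysis was possible because each stage has 1 library, so that the stages share fewer than 2 replicate numbers. Nothing here measures the spread between animals. Germ cells of E105 rest on 83 cells and 1697673 UMIs, in which EZH1 had 20 UMIs, so that its stage ratio of 0.957 has an interval of 0.543 to 1.62. Gates made from marker RNA, free RNA and doublets can shift class levels, and 3' UMI counts do not separate isoforms.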
